A study of Rattus norvegicus with 4 samples.

Results

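Mural cells are the smooth muscle cells that wrap arteries and veins and the pericytes that sit on capillaries. The 10 genes described here are Rgs5, Abcc9, Pdgfrb, Cspg4, Notch3, Acta2, Tagln, Myh11, Cnn1 and Smtn, taken by symbol from an expression table of 22861 loci that named 16072 genes singly. Where a symbol had more than 1 locus, the locus with the highest mean of both group values was used, which concerned Rgs5 and Smtn. All 10 genes were measured and all 10 entered the authors' test.

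The tissue was left ventricle from male rats of the Sprague Dawley strain in which most kidney mass had been excised (5/6 nephrectomy, 5/6Nx) at 10 weeks of age. The anti-miR-21 group received a locked nucleic acid (LNA), a chemically stabilised oligonucleotide, directed against miR-21-5p. The anti-scr group received a scrambled LNA. Both groups shared the surgery, the strain, a 0.4% Dyets chow and the schedule of 1 mg/kg on 3 days in week 1 and again in week 4, with tissue taken in week 7. No group without nephrectomy was analysed here, nor was the level of the mature microRNA. Each group had 2 libraries, and each library was a pool of 2 to 3 rats. The anti-miR-21 libraries held 47826514 and 54952098 reads and the anti-scr libraries 48549754 and 53501488 reads, with 94.0% to 94.4% of reads mapped. Values are FPKM, fragments scaled to transcript length and library size, and the deposited table gives 1 value per gene and group. A spread between the pools could therefore not be computed, and error enters only through the authors' p and q. Folds are log2 of the anti-miR-21 over the anti-scr value.

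Mural cells hold the vessel wall in tone through a contractile apparatus of smooth muscle actin, smooth muscle myosin and their regulators. Serum response factor and its partner myocardin switch on many of these contractile genes by binding CArG boxes. Pericytes and smooth muscle cells are recruited by PDGF-B from endothelium acting on the receptor PDGFR-beta, and arterial smooth muscle is maintained by endothelial Jagged ligands acting on NOTCH3. In rodents, miR-21 has been studied in smooth muscle growth and in the vascular wall as well as in cardiac fibroblasts.

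The targeted microRNA and the promoters of 2 contractile genes are shown. The microRNA is what the LNA of the anti-miR-21 group was directed against. Acta2 is the gene by which smooth muscle is most often identified, and Smtn had the lowest fold of the 10. Sequences are from RefSeq on build GRCr8, 5′ to 3′. Capitals in the microRNA mark its seed, bases 2 to 8. Capitals in the promoters, which run from 250 bases before to 50 bases after the annotated start, mark CArG boxes with at most 1 G or C among the central 6 bases, and CATTCC (the MCAT element, bound by TEAD factors) on either strand.
rno-miR-21-5p: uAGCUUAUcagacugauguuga
Acta2: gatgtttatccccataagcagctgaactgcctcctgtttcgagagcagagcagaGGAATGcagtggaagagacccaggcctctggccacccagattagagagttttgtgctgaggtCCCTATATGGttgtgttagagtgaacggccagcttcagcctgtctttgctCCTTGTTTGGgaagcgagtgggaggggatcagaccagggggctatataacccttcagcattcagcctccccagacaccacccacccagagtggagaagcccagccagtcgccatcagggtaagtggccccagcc
Smtn: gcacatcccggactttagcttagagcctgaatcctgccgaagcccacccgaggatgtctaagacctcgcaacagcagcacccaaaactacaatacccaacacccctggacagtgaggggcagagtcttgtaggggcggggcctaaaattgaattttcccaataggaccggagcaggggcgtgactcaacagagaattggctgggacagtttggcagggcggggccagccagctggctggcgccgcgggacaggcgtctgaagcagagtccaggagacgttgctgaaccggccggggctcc

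The microRNA lies on the minus strand at chr10:71902653-71902674, the Acta2 window on the minus strand at chr1:241172454-241172753 and the Smtn window on the minus strand at chr14:82644465-82644764, all on GRCr8. Of the 10 genes, 7 had a promoter in the table (Rgs5, Abcc9, Cspg4, Notch3, Acta2, Cnn1 and Smtn). Acta2 alone among these 7 held a CArG box of the kind marked, and it held 2, at bases 117 to 126 and 167 to 176 of its window. Each of them carries a G or C inside the central stretch. A CArG box with only A and T in the central 6 bases was in none of the 7, and was in 1.64% of all 33469 promoter windows, while the wider form was in 9.42%. CATTCC was in 1 of the 7, Acta2, against 14.2% of all windows, and GTGGGAA, a core bound by the Notch effector RBPJ, was in none, against 6.29%. Motifs were sought on both strands, and no pair of them overlapped in these 7 windows. Sequence outside the windows was not searched, so these counts do not cover sites farther upstream or within the genes.

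The 10 genes spanned a wide range of abundance, and 8 of them held the same rank in both groups. Rgs5, which encodes a regulator of G protein signalling and is a standard pericyte marker, was the most abundant, with 550.7 FPKM in the anti-miR-21 group and 473.7 FPKM in the anti-scr group. It ranked 219 of 16072 genes by mean FPKM at the locus used. At its second locus, which had 107.8 FPKM in the anti-miR-21 group and 82.5 FPKM in the anti-scr group, Rgs5 would stand below Abcc9 in the anti-miR-21 group and below Acta2 and Abcc9 in the anti-scr group. Cspg4, which encodes the pericyte proteoglycan NG2, was the least abundant, with 2.26 FPKM in the anti-miR-21 group and 2.86 FPKM in the anti-scr group. Between them, in the order of the anti-miR-21 values, came Abcc9, Acta2, Tagln, Pdgfrb, Smtn, Myh11, Notch3 and Cnn1. The order was the same in the anti-scr group except that Acta2 stood above Abcc9 there. With 1 value per group, whether neighbours in this order differ beyond their spread could not be assessed.

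**Figure D1:**
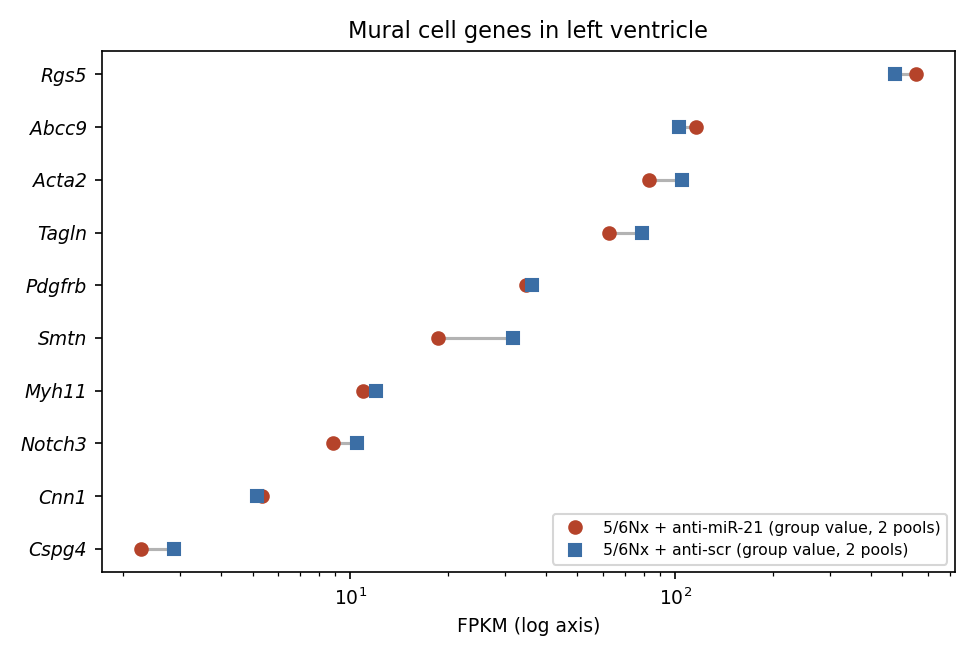
FPKM of the 10 mural genes on a log axis, 1 group value each for anti-miR-21 (circles) and anti-scr (squares), joined by a line, with no error bar because the table holds no value per library. Rgs5 lies at the top with 550.7 and 473.7 FPKM, Cspg4 at the bottom with 2.26 and 2.86 FPKM, and Smtn has the longest line.

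None of the 10 genes had a q under 0.05 in the authors' deposited table from Cuffdiff, where 0.815% of 12876 tested loci did. None passed at a q under 0.1 or 0.2, where 1.31% and 2.21% of tested loci did. At an unadjusted p under 0.05 in that table there was 1 member, Smtn, on the lower side. Over all tested loci this share was 9.3%, with 6.11% lower and 3.18% higher. By value alone, 7 of the 10 were lower with anti-miR-21 and 3 were higher. Their median log2 fold was -0.19, beside 0.01 over 9490 singly named genes with a mean FPKM of at least 1, of which 48.0% were lower. With the less abundant locus of Rgs5 and Smtn in place of the other, an alternative chosen after seeing the data, the median was -0.09 and 6 of the 10 were lower. The folds of the 10 genes ran from -0.77 to 0.22. In bulk tissue, fewer cells of a type and less RNA per cell cannot be told apart.

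The contractile genes of smooth muscle covered most of this range, with Smtn, Acta2 and Tagln at its low end and Cnn1 among the 3 genes with a positive fold. Of Acta2, Tagln, Myh11, Cnn1 and Smtn, 4 were lower in value with anti-miR-21 and 1 was higher, with a median log2 fold of -0.34. Their summed level was 180.2 FPKM in the anti-miR-21 group and 232.9 FPKM in the anti-scr group. The other 5 genes, of which Rgs5 made up most, summed to 712.7 FPKM in the anti-miR-21 group and 625.9 FPKM in the anti-scr group, and had a median log2 fold of -0.06. This split by role was made with the folds already known, so the difference from the other 5 genes is a description.

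Smtn encodes smoothelin, a cytoskeletal protein of differentiated contractile smooth muscle. It had 18.6 FPKM in the anti-miR-21 group and 31.7 FPKM in the anti-scr group, a log2 fold of -0.77, with p = 0.0051 and q = 0.209 in the authors' deposited table. Of all tested loci, 2.42% had a smaller p. The gene was listed at 2 loci with identical coordinates on rn5 (chromosome 14, 84443041 to 84464832). The other Smtn locus had 10.6 FPKM in the anti-miR-21 group and 10.1 FPKM in the anti-scr group, a log2 fold of 0.06 (p = 0.842 in the authors' deposited table). The anti-miR-21 value was thus lower at the more abundant locus and close to the anti-scr value at the second one, a difference between loci that was not tested. With both loci summed, although the strand each measures is not labelled, the log2 fold was -0.52.

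Acta2, smooth muscle alpha-actin, the thin-filament protein of vascular smooth muscle, had 82.9 FPKM in the anti-miR-21 group and 105.2 FPKM in the anti-scr group (log2 fold -0.34, p = 0.0781 and q = 0.602 in the authors' deposited table; rn5 chromosome 1, 259760520 to 259773301). Acta2 is closely similar in coding sequence to the striated muscle actins, so how the authors' software divided shared reads bears on its value. Actc1, cardiac actin, had 19395 FPKM in the anti-miR-21 group and 21969 FPKM in the anti-scr group, and stood 233.9 and 208.9 times as high as Acta2 in those groups. Skeletal actin, Acta1, fell with anti-miR-21, with 305.0 FPKM there and 590.3 FPKM in the anti-scr group (q = 0.0131 in the authors' deposited table). The part of such shared reads in the Acta2 value was not tested.

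Tagln encodes transgelin, an actin-binding protein also called SM22-alpha, an early marker of smooth muscle. It had 62.4 FPKM in the anti-miR-21 group and 78.8 FPKM in the anti-scr group (log2 fold -0.34, p = 0.136 and q = 0.692 in the authors' deposited table). Its locus (rn5 chromosome 8, 48824387 to 48852922) has the same coordinates as a locus named Pcsk7, a proprotein convertase gene, which had 8.45 FPKM in the anti-miR-21 group and 10.9 FPKM in the anti-scr group. These loci overlap, and both were lower in value. Whether they share reads was not tested.

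Myh11, the smooth muscle myosin heavy chain and the most lineage-restricted of the contractile markers, had 11.0 FPKM in the anti-miR-21 group and 12.0 FPKM in the anti-scr group (log2 fold -0.13, p = 0.531 in the authors' deposited table; rn5 chromosome 10, 11444266 to 11538563). Cnn1, calponin 1, an actin-binding inhibitor of myosin ATPase, was the contractile gene with a positive fold. It had 5.35 FPKM in the anti-miR-21 group and 5.18 FPKM in the anti-scr group (0.05, p = 0.871 in the authors' deposited table; rn5 chromosome 8, 23167869 to 23176532). None of the 5 contractile genes was called, and Myh11 stood at -0.23 relative to genes of similar gene density (the number of named loci within 500 kb), against -0.29 for Tagln measured in that way.

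**Figure D2:**
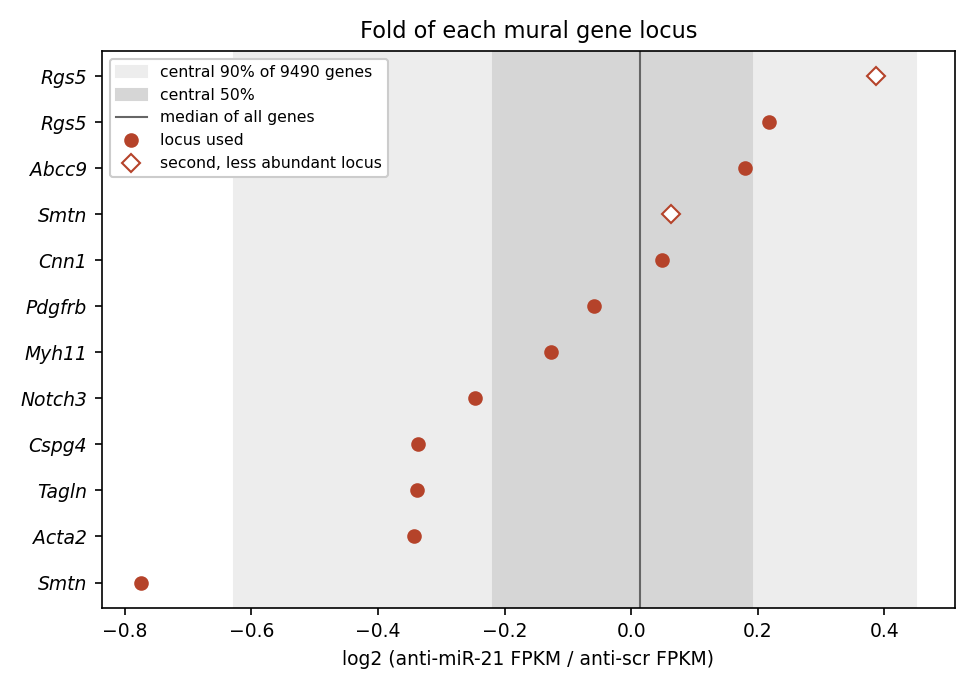
Log2 fold of anti-miR-21 over anti-scr FPKM for each locus of the 10 genes (circles, the locus used; open diamonds, the second locus of Rgs5 and Smtn) over shaded bands that hold the central 50% and 90% of the folds of 9490 genes, with their median as a line. Smtn at -0.77 lies below the lower edge of the 90% band at -0.63, while its second locus at 0.06 lies near the median, and the other 9 genes lie inside the band.

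The receptors and surface proteins of mural cells were the second group. Pdgfrb, the receptor for PDGF-B, had 34.7 FPKM in the anti-miR-21 group and 36.2 FPKM in the anti-scr group (log2 fold -0.06, p = 0.771 in the authors' deposited table; rn5 chromosome 18, 55596757 to 55637692). Notch3, the Notch receptor of arterial smooth muscle, had 8.84 FPKM in the anti-miR-21 group and 10.5 FPKM in the anti-scr group (-0.25, p = 0.304 in the authors' deposited table; rn5 chromosome 7, 14293754 to 14345774). Cspg4 had a log2 fold of -0.34 (p = 0.156 in the authors' deposited table; rn5 chromosome 8, 60100933 to 60136205). Cspg4 and Tagln shared this size of fold with Acta2, although Cspg4 was far less abundant than either.

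Ligands and partners of these receptors did not pass the test either. Of 9 measured genes of PDGF signalling, none had a q under 0.05, 1 had an unadjusted p under 0.05 in the authors' deposited table, on the higher side, and the median log2 fold was 0.00. That gene was Pdgfd, a ligand of PDGFR-beta, with 9.35 FPKM in the anti-miR-21 group and 6.11 FPKM in the anti-scr group (0.61, q = 0.408). Of all tested loci, 3.18% were higher at that p threshold. Nck1 and Ptpn11, adaptor and phosphatase genes that act below the receptor, had log2 folds of 0.30 and -0.13. Pdgfb itself, chosen after its value was seen, had 6.22 FPKM in the anti-miR-21 group and 6.20 FPKM in the anti-scr group. Of 17 tested genes of Notch signalling, none was called, and the median log2 fold was -0.11. Relative to genes of similar gene density, the median of this list was 0.01. An unadjusted p under 0.05 was found for 3 genes on the higher side and 1 on the lower side, beside 3.18% and 6.11% of all tested loci. The ligand gene Jag1 had 6.29 FPKM in the anti-miR-21 group and 4.37 FPKM in the anti-scr group (q = 0.370), and the target gene Hes1 had a log2 fold of 0.45 (q = 0.494). Mfng, a glycosyltransferase that modifies Notch receptors, had 3.12 FPKM in the anti-miR-21 group and 5.01 FPKM in the anti-scr group (q = 0.468). All q here are from the authors' deposited table. Heyl, a Notch target gene expressed in mural cells, had a log2 fold of -0.28 and was chosen after its value was seen. Values of the Notch list thus lay in both directions.

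Rgs5 and Abcc9 were the genes with the highest folds. Rgs5 had a log2 fold of 0.22 (p = 0.304 and q = 0.817 in the authors' deposited table) at its more abundant locus. It too was listed at 2 loci with identical coordinates (rn5 chromosome 13, 92595100 to 92635171). The other Rgs5 locus had 107.8 FPKM in the anti-miR-21 group and 82.5 FPKM in the anti-scr group, a log2 fold of 0.39 (p = 0.562 in the authors' deposited table). Unlike at Smtn, both loci were higher in value with anti-miR-21, and their sum had a log2 fold of 0.24.

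The numbering of loci gave a hint on strand. Locus numbers ran along each of 21 chromosomes by position more than once, and among genes with 1 locus, 91.1% of 4961 in the first run were on the plus strand in RefSeq and 90.8% of 4867 in the second run were on the minus strand. Of the 7 mural genes with a RefSeq strand, 6 had their locus in the run of their own strand, Smtn among them. The exception was Rgs5, a plus-strand gene whose more abundant locus stood in the second run, while the less abundant one stood in the first. Of its neighbours within 1 Mb with a RefSeq strand, 5 of 5 stood in the run of their own strand. No label or header says which strand each Rgs5 locus measures, so the level of 550.7 against 473.7 FPKM is the level of that locus rather than a strand-checked level of the Rgs5 transcript. The less abundant Smtn locus stood in the first run, although Smtn is a minus-strand gene, and the strand it measures is likewise not labelled. The Tagln locus stood in the second run and the overlapping Pcsk7 locus in the first, also without a strand label. Across the table, 407 symbols had 1 locus in each of the first 2 runs at the same coordinates.

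Other genes of the RGS family, which shorten signalling by G protein-coupled receptors such as those for angiotensin and endothelin, were mostly higher in value too. Of 10 tested members other than Rgs5, none was called and 1 was higher at an unadjusted p under 0.05 in the authors' deposited table. Of all tested loci, 3.18% were higher at that threshold. By value 9 of the 10 RGS genes were higher and 1 was lower, with a median log2 fold of 0.34. Of 9490 singly named genes with a mean FPKM of at least 1, 4939 were higher in value. Relative to genes of similar gene density, the median of the RGS genes was 0.29. Rgs2 had 18.0 FPKM in the anti-miR-21 group and 10.7 FPKM in the anti-scr group (0.75, p = 0.0295 and q = 0.452 in the authors' deposited table). Rgs10 had 37.9 FPKM in the anti-miR-21 group and 27.9 FPKM in the anti-scr group (0.44). Rgs4, which lies next to Rgs5 on chromosome 13 and is also found in pericytes, was chosen after its value was seen and had 24.2 FPKM in the anti-miR-21 group and 19.3 FPKM in the anti-scr group (0.32).

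Abcc9 encodes SUR2, the regulatory subunit of the ATP-sensitive potassium (KATP) channel, which in vessels pairs with the pore subunit Kir6.1 encoded by Kcnj8 and relaxes smooth muscle when it opens. A splice form of SUR2 is also the regulatory subunit in cardiomyocytes, so in whole ventricle Abcc9 is not a measure of mural cells alone. Abcc9 had 116.2 FPKM in the anti-miR-21 group and 102.6 FPKM in the anti-scr group (log2 fold 0.18, p = 0.337 in the authors' deposited table; rn5 chromosome 4, 241019050 to 241139643). Kcnj8 is its neighbour on that chromosome (240996197 to 241003394) and had 27.5 FPKM in the anti-miR-21 group and 27.2 FPKM in the anti-scr group (0.02). The other pair of KATP genes, Kcnj11 and Abcc8, which are neighbours on chromosome 1, were lower in value. Kcnj11, which encodes the cardiomyocyte pore subunit Kir6.2, had 16.4 FPKM in the anti-miR-21 group and 25.4 FPKM in the anti-scr group (-0.63, p = 0.00175 and q = 0.114 in the authors' deposited table). Abcc8 had 5.15 FPKM in the anti-miR-21 group and 7.11 FPKM in the anti-scr group (-0.46). None of these 4 channel genes was called, and the difference between the pairs was not tested.

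Further markers of smooth muscle and pericytes did not share one direction. Of 20 other contractile genes, none was called, and the median log2 fold was 0.01, with 11 higher and 9 lower in value. At an unadjusted p under 0.05 in the authors' deposited table, 2 of the 20 were on the higher side and 1 on the lower side. Over all tested loci those shares were 3.18% and 6.11%. The lower one of the 20 was Des, the intermediate filament gene desmin, with 538.4 FPKM in the anti-miR-21 group and 822.4 FPKM in the anti-scr group (-0.61, p = 0.0016 and q = 0.110 in the authors' deposited table). Desmin is also a cardiomyocyte protein. Itga8, an integrin of smooth muscle and pericytes, had 3.73 FPKM in the anti-miR-21 group and 2.60 FPKM in the anti-scr group (0.52, p = 0.0344 in the authors' deposited table). Ppp1r12a, the targeting subunit of myosin phosphatase, was the other gene on the higher side (0.40), chosen after its value was seen. Myosin light chain 9, Myl9, a light chain of smooth muscle myosin, had a log2 fold of 0.14 and was likewise chosen after its value was seen. The fold of Myh11 had the opposite sign, at -0.13.

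Of 14 tested pericyte genes beyond the 10, none was called and none had an unadjusted p under 0.05 in the authors' deposited table. Their median log2 fold was 0.07, with 8 higher and 6 lower in value. The most abundant, Art3, had 282.0 FPKM in the anti-miR-21 group and 298.3 FPKM in the anti-scr group (-0.08). The smallest p belonged to the endothelin receptor genes. Ednra had 18.1 FPKM in the anti-miR-21 group and 13.9 FPKM in the anti-scr group (0.38, q = 0.581). Ednrb had 17.5 FPKM in the anti-miR-21 group and 13.6 FPKM in the anti-scr group (0.36, q = 0.586, both from the authors' deposited table). The regulators of smooth muscle genes gave none called among 10 tested, with 2 higher at an unadjusted p under 0.05. Over all tested loci, 3.18% were higher at that threshold. By value, 6 of the 10 regulators were higher and 4 were lower, with a median log2 fold of 0.08. Of the 2 with the smaller p, Prrx1, a mesenchymal homeobox factor, had 7.96 FPKM in the anti-miR-21 group and 5.26 FPKM in the anti-scr group (0.60, q = 0.203). Klf4, a factor that represses contractile smooth muscle genes, had 120.4 FPKM in the anti-miR-21 group and 89.7 FPKM in the anti-scr group (0.42, q = 0.454), again from the authors' deposited table. Srf and Myocd, chosen after their values were seen, had log2 folds of -0.28 and -0.19 (p = 0.166 and 0.329 in the authors' deposited table).

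**Figure D3:**
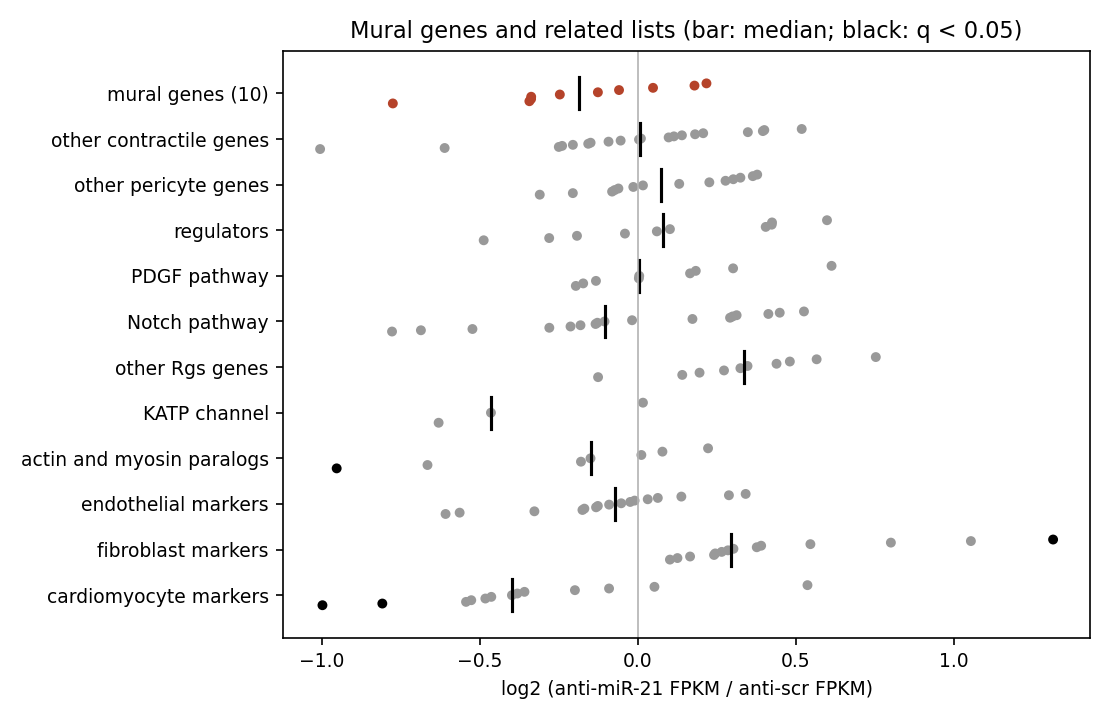
Log2 fold of anti-miR-21 over anti-scr FPKM for the 10 mural genes and for genes of 11 related lists with a mean FPKM of at least 1; each point is a gene, vertical bars are list medians, and black points have a deposited q under 0.05. The mural genes have a median of -0.19, the other contractile genes 0.01 and the other pericyte genes 0.07, and black points occur only among actin paralogs, fibroblast markers and cardiomyocyte markers.

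Among markers of other cells of the ventricle, only the fibroblast and cardiomyocyte lists held called genes. At an unadjusted p under 0.05 in the authors' deposited table, 3.18% of all tested loci were higher and 6.11% were lower. By value, 4939 of 9490 singly named genes with a mean FPKM of at least 1 were higher and 4551 were lower. Of 16 tested endothelial markers none was called, 2 were lower at an unadjusted p under 0.05 in the authors' deposited table (Eng, log2 fold -0.56, and Cldn5, -0.61), and 11 were lower in value. Their median fold was -0.07, with a summed level of 3595 FPKM in the anti-miR-21 group and 3589 FPKM in the anti-scr group, most of it Fabp4 (2772 and 2713 FPKM). Of 14 fibroblast markers with a mean FPKM of at least 1, all 14 were higher in value, Postn rose (55.8 FPKM in the anti-miR-21 group, 22.4 FPKM in the anti-scr group, q = 0.0131 in the authors' deposited table), and the sum was 3412 FPKM in the anti-miR-21 group and 2651 FPKM in the anti-scr group. The most abundant of them, Dcn, had a log2 fold of 0.27. At an unadjusted p under 0.05 in the authors' deposited table, 4 of the 14 were higher and none was lower. The one fibroblast marker with a mean FPKM under 1 was the collagen gene Col1a2, listed at 0 in the anti-miR-21 group and at 0.0123 FPKM in the anti-scr group. Since fibroblasts express it strongly, these entries may be failed estimates. Of 13 cardiomyocyte markers, 11 were lower in value, among them the most abundant, Myl2 (-0.38), and Myl3 and Ckm fell in the authors' deposited table. At an unadjusted p under 0.05 in that table, 6 were lower and 1 was higher. The higher one was the natriuretic peptide gene Nppa (0.54), chosen after its value was seen. The summed level of the 13 was 80408 FPKM in the anti-miR-21 group and 104539 FPKM in the anti-scr group. No other marker on these 3 lists was listed at 0 in either group, and the part of these lists in the mural values was not tested.

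Position was compared because folds in this table declined with gene density. The number of other named loci within 500 kb on either side was between 5, at Myh11, and 20, at Smtn. When the 9490 genes were ordered by this number and split into 10 equal bins, the median log2 fold ran from 0.17 in the sparsest to -0.28 in the densest. Measured against the median of its own bin, Smtn had a log2 fold of -0.66, Acta2 of -0.36, Cspg4 of -0.35, Tagln of -0.29, Myh11 of -0.23 and Notch3 of -0.20. Rgs5 and Abcc9 each stood at 0.16, Cnn1 at 0.10 and Pdgfrb at -0.01. The direction of all 10 genes was as before, and their median was -0.22. Measured in that way, the other contractile genes had a median of 0.03 and the other pericyte genes of 0.06. The Notch list stood at 0.01 and the regulators at -0.04. The fibroblast markers stood at 0.25, the cardiomyocyte markers at -0.34 and the endothelial markers at -0.06.

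**Figure D4:**
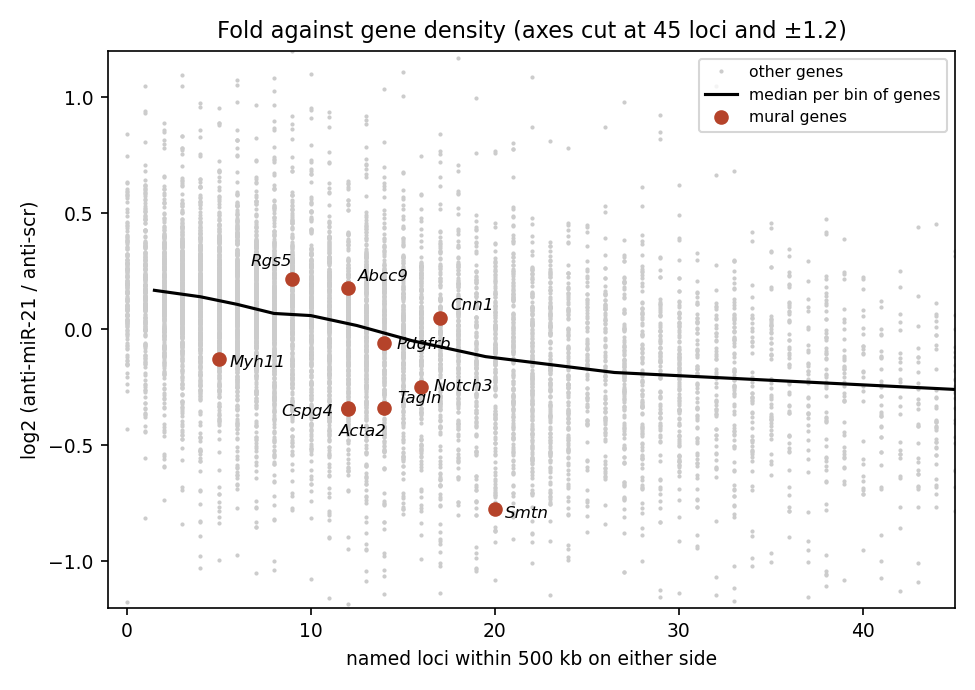
Log2 fold of anti-miR-21 over anti-scr FPKM (vertical axis) against the number of other named loci within 500 kb on either side (horizontal axis) for 9490 genes (grey), with the median of each of 10 bins of genes (line, at the middle of each bin's range) and the 10 mural genes (circles). Smtn, with 20 neighbours, and Acta2, Cspg4, Tagln, Myh11 and Notch3 lie below the line, and Rgs5, Abcc9 and Cnn1 lie above it.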

How the data were processed

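Left ventricle RNA from both groups was sequenced as paired reads after a stranded total RNA library preparation, per the labels. The submitters' processing notes list Cuffdiff, Cufflinks 2.0.10, TopHat2 2.0.10 and cutadapt, with rn5 as the build; annotation, strand setting and options are not given in the sources used here. The deposited FPKM table, per the file headers, has 1 value per locus and group, with the score (test statistic), p-value and q-value of the authors' test. A deposited count of reads and the percent of reads mapped came per library. How library size was set for the FPKM is not given, and changes of very abundant transcripts can shift all other values.

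Of 22861 loci, 97 had cells displaced from their headers and were read from the row end; loci with several gene names (257) were left out of gene lists. Folds were recomputed from the FPKM without a pseudocount, and differed from the deposited log2 value in 13 loci beyond 0.002. Tested loci (12876) were those whose deposited statistic, p and q did not all hold the default values of an untested locus. A call is a deposited q under 0.05. No fit per library was possible, as the design foresaw. The q-values equal a Benjamini-Hochberg adjustment of the p-values. Python 3.11.15 and pandas 2.3.3 were used, and reading and adjustment were tested on simulated data.

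Members and lists were chosen with earlier results of these data known. Genes named are the 10 members and, per list, the called genes or the 2 with the smallest p, and the most abundant. Others overlap a member or are marked, except Col1a2, which was named for its mean FPKM under 1.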

Additional observations from a re-analysis of the deposited data

How the results depend on the processing

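The count of called members stayed at 0 at a q under 0.1 or 0.2, with q recomputed over all tested loci or over those whose FPKM averaged 1 or more (smallest member q 0.212), and was 1 (Smtn) at an unadjusted p under 0.05. Of 50 alternative folds of single members (pseudocounts of 1 and 0.1, 2 centrings, summed loci), none changed sign and 47 moved by less than 0.1. The median log2 fold of the members ran from -0.25 to -0.13 when each member was left out in turn. With the second locus of Rgs5 and Smtn, an alternative chosen after seeing the data, it was -0.09 with 6 members lower. No paired analysis was possible because the table holds 1 value per group, and leaving out a replicate was not run for the same reason. The number of reads behind each FPKM is unknown.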
